A study of Mus musculus with 4 samples.

Results

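The tumor necrosis factor (TNF) superfamily was followed over 4 subsets of spleen dendritic cells (DCs), with ligands kept apart from receptors. Members were the genes whose symbol in the platform annotation is Tnf or starts with Tnfsf or Tnfrsf and a number, and for each the probe set of highest mean log2 signal over the arrays was used. The rule found 28 of the 18193 genes with a symbol of their own, measured by 47 probe sets. Of these, 8 were ligands, 19 were receptors and 1, Tnfsf13os, is a transcript antisense to the ligand gene Tnfsf13, which is not a ligand itself. Tnfsf13os stayed below the floor, defined further on, on all arrays.

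The cells came from digested spleens of Cx3cr1gfp/+ C57BL/6 mice, in which a green fluorescent protein gene replaces a copy of the chemokine receptor gene Cx3cr1 in every cell, so that all groups share this allele. DCs with high CD11c were sorted as CD8+CX3CR1+, CD8+CX3CR1-, CD4+ and DN cells (DN usually means neither CD4 nor CD8), and RNA of each was hybridised to 1 Affymetrix mouse expression array. No sample was labelled as BMP4-treated. The sources used here do not give the number, age or pooling of the mice. As each group has a lone array, no test could be made, no value has an error, and each difference describes a pair of arrays. In such bulk samples, fewer cells that express a gene and less RNA per cell cannot be told apart.

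Ligands of the TNF superfamily are mostly membrane proteins that act as trimers on receptors of neighbouring cells, and some are also shed. Receptors pass the signal on through TRAF adaptors to NF-kB, or through death domains to caspases. DCs use the family in both directions: ligands such as CD137L and OX40L costimulate T cells, BAFF sustains B cells, and receptors such as CD40, RANK and the TNF receptors drive DC maturation and survival.

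All values are linear MAS5 signals. A floor of 55.7 was set from genes of odorant and other chemosensory receptors and of hair keratin-associated proteins, and signals under it are read only as low. Where only 1 of 2 arrays is below the floor, the fold is a bound (at least N-fold). A gene was called in a pair of arrays if the signals, raised to the floor, were at least 4-fold apart. Between 41.0% and 42.5% of probe sets passed the floor on 3 arrays and 47.6% on the CD4+ array, which also had the highest 3'/5' ratio of the Gapdh control (11.8, against 7.56 to 8.98). The ratio of the actin control was 2.86 on the CD4+ array and 1.79 to 2.32 on the others. Such ratios are higher in less intact RNA, but their cause was not tested. Values are given below by the sorted subset whose array they come from. Sort markers went with the titles, as Cd8a was 2530 and 4742 on the CD8+ arrays and at most 130 on the others, Cx3cr1 was 894 against 97.3 within the CD8+ pair, and Cd4 was 564 on the CD4+ array. For the CD8+CX3CR1- and DN arrays the labels name another DC type than the titles, and groups follow the titles. Signals of marker genes of CD8 DCs summed to 28921 for CD8+CX3CR1- cells and to 3681 to 8980 for the others, while those of CD4 and CD11b DCs summed to 571 on the CD8+CX3CR1- array and to 11070 to 15867 elsewhere. Irf8 (13285) and Naaa (7460) made up most of the first sum on the CD8+CX3CR1- array. Of the 7 CD8 DC markers 6 were highest there, and Batf3 was highest on the CD4+ array (2678, against 2570). Csf1r made up most of the second sum on every array, at 11291, 498, 13894 and 9142 in CD8+CX3CR1+, CD8+CX3CR1-, CD4+ and DN DCs. All 5 CD4 and CD11b DC markers were lowest on the CD8+CX3CR1- array, but Itgam passed the floor only in DN DCs (65.1).

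Of the 19 receptors, 13 (68.4%) passed the floor on 1 array or more, as did 5 of the 8 ligands (62.5%) and 69.3% of all named genes. Fewer members were above it on every array, namely 4 receptors (21.1%) and 2 ligands (25%), against 42.7% of all genes. Among members above the floor on at least 1 array, the highest array exceeded the lowest by a median of 1.71-fold for receptors and 1.91-fold for ligands, and over all detected genes by 1.61-fold. The members that lay below the floor on all arrays were Tnfsf4, Tnfsf10 and Tnfsf11 among the ligands, and Tnfrsf8, Tnfrsf11b, Tnfrsf14, Tnfrsf19, Tnfrsf23 and Tnfrsf25 among the receptors. In the plot of signal by array, the receptor with the widest spread is Tnfrsf13b, followed by Tnfrsf4 and Tnfrsf18.

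**Figure D1:**
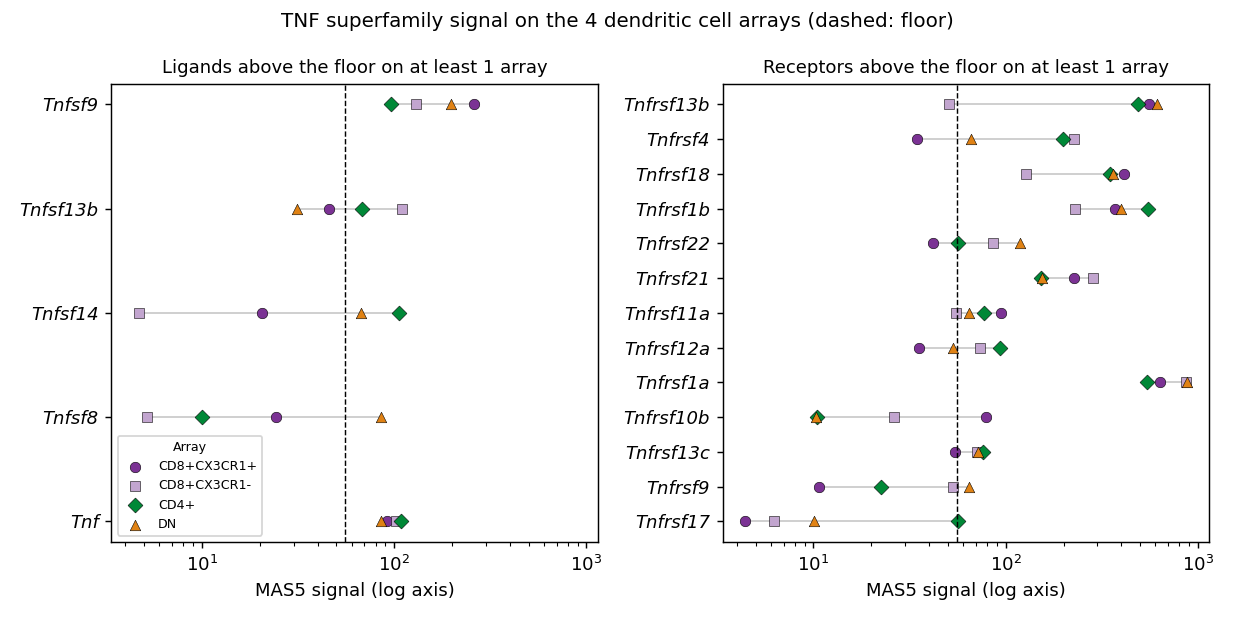
MAS5 signal (log axis) of the 5 ligands and 13 receptors above the floor on at least 1 array, ordered by their spread after the floor, with 1 point per array and a grey line from the lowest to the highest array. The dashed line is the floor of 55.7. Tnfrsf13b lies at 488 to 611 on 3 arrays and at 50.7 in CD8+CX3CR1- DCs, and Tnfrsf4 is high in CD8+CX3CR1- and CD4+ DCs.

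The largest difference among the members picked by symbol was in Tnfrsf13b, which encodes TACI, a receptor for the B cell survival factors BAFF and APRIL. Its signal was 556 in CD8+CX3CR1+ DCs, 488 in CD4+ DCs and 611 in DN DCs, against 50.7, a value below the floor, in CD8+CX3CR1- DCs. The CD8+CX3CR1- array was thus apart from the other 3, which differed among themselves by at most 1.25-fold. Tnfrsf13b was at least 9.99-fold lower in CD8+CX3CR1- DCs than in CD8+CX3CR1+ DCs, at least 8.76-fold lower than in CD4+ DCs and at least 10.96-fold lower than in DN DCs. Of all detected genes, 99.0% had a smaller spread over the arrays. The gene has 1 probe set, so no other probe set could be set beside it.

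TACI is best known from B cells, so B cell markers are given with it. Of 7 B cell markers on the platform, 6 were above the floor on 1 array or more and 2, Ms4a1 and Cd22, on all arrays. All 7 together summed to 1521 in CD8+CX3CR1+, 911 in CD8+CX3CR1-, 3303 in CD4+ and 3200 in DN DCs. The defining marker Cd79a, a chain of the B cell receptor complex, was below the floor on all arrays, at 2.10 to 36.6. Its partner Cd79b was 593, 3.10, 402 and 178 in the same order, and Ms4a1, which encodes CD20, was 361, 446, 202 and 163. Cd22, an inhibitory receptor of B cells, was 396, 269, 2513 and 2713 and made up most of the sum in CD4+ and DN DCs. Fcer2a was 114, 81.1, 49.9 and 83.3, Pax5 passed the floor in CD4+ DCs only (97.1) and Cr2 in CD8+CX3CR1- DCs only (66.0). Cd79b was below the floor on the same array as Tnfrsf13b, whereas Ms4a1 and Cr2 were highest there. The part of B cell RNA in the Tnfrsf13b signal was not tested.

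The other receptors of the BAFF system were low. Tnfrsf13c, the BAFF receptor, was 54.5 in CD8+CX3CR1+ DCs and 70.6, 76.5 and 72.2 in CD8+CX3CR1-, CD4+ and DN DCs, all close to the floor, and the order of the last 3 changes with the scaling. Tnfrsf17, which encodes the plasma cell receptor BCMA, reached 56.3 in CD4+ DCs only, below the 59.9 that background probe sets reached there by the same percentile. The ligand gene Tnfsf13b, encoding BAFF itself, was 109 in CD8+CX3CR1- DCs and 68.2 in CD4+ DCs, and below the floor at 45.9 and 31.1 in CD8+CX3CR1+ and DN DCs. The array lowest in the receptor gene Tnfrsf13b was therefore the highest in the ligand gene, at least 1.96-fold above the CD8+CX3CR1+ and DN arrays and 1.60-fold above the CD4+ array. The other 2 probe sets of Tnfsf13b stayed below the floor throughout.

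Tnfrsf18 and Tnfrsf4 are neighbouring protein-coding genes on mouse chromosome 4 and encode GITR and OX40, costimulatory receptors studied mainly on T cells. Tnfrsf18 was 415 in CD8+CX3CR1+, 350 in CD4+ and 361 in DN DCs, and 128 in CD8+CX3CR1- DCs. As for Tnfrsf13b, the CD8+CX3CR1- array was the low one, here 3.24-fold under the CD8+CX3CR1+ array, 2.73-fold under the CD4+ array and 2.82-fold under the DN array, none of which reached 4-fold. Tnfrsf4 had another order, with 228 in CD8+CX3CR1- DCs, 199.5 in CD4+ DCs, 66.3 in DN DCs and 34.5, below the floor, in CD8+CX3CR1+ DCs. CD8+CX3CR1- DCs exceeded CD8+CX3CR1+ DCs in it by at least 4.09-fold. This call rests on the floor: with the highest of the floors of the single arrays (62.6) the log2 difference (CD8+CX3CR1+ minus CD8+CX3CR1-) was -1.86, short of 4-fold. The bound between CD4+ and CD8+CX3CR1+ DCs was 3.58-fold. Between the CD8+ arrays the neighbours thus lay in opposite directions, and each has 1 probe set.

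Of 5 T cell markers on the platform, Cd3g and Cd28 were below the floor throughout, and the 5 summed to 258 (CD8+CX3CR1+), 102.5 (CD8+CX3CR1-), 228 (CD4+) and 217 (DN). Cd3d was 59.1 in CD8+CX3CR1+ DCs and below the floor on the others, and Cd3e was 65.8 and 66.8 in CD8+CX3CR1+ and DN DCs and below it on the rest. Cd5, a surface protein of T cells and some B cells, was 117, 45.4, 171 and 128 in CD8+CX3CR1+, CD8+CX3CR1-, CD4+ and DN DCs, and carried most of the sum in CD4+ and DN DCs. All 5 markers were below the floor in CD8+CX3CR1- DCs, where Tnfrsf18 was lowest and Tnfrsf4 highest. The part of T cell RNA in either signal was not tested.

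The sequences before the start sites of Tnfrsf13b, Tnfrsf18 and Tnfrsf4 are shown because these 3 genes held the widest spreads among the members picked by symbol. Tnfrsf13b and Tnfrsf18 were lowest in CD8+CX3CR1- DCs and Tnfrsf4 was highest there. The sequences carry no result on the signals. Shown are the 250 bases before the start that RefSeq's table gives for each gene, in build GRCm38.p6, which matched 22 of the 28 members. Capitals mark matches, on either strand, to GGAAGT (a core bound by Ets factors), GAGGAA (a purine box of the kind bound by PU.1 and Spi-B), CAGGTG (an E box) and TGANTCA (AP-1), motifs chosen after the sequences were seen. The first is Tnfrsf13b at chr11:61126505-61126754, the second Tnfrsf18 at chr4:156026072-156026321 and the third Tnfrsf4 at chr4:156013445-156013694, all on the plus strand.
Tnfrsf13b: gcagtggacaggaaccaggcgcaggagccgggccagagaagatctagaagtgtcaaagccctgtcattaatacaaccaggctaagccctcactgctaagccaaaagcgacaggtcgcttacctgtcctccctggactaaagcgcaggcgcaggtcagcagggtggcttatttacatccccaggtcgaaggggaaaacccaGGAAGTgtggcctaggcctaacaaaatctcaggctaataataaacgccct
Tnfrsf18: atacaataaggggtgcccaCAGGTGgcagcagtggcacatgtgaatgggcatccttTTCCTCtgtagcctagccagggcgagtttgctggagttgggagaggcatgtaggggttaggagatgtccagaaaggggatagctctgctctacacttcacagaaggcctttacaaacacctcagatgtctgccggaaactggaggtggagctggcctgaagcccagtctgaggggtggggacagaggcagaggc
Tnfrsf4: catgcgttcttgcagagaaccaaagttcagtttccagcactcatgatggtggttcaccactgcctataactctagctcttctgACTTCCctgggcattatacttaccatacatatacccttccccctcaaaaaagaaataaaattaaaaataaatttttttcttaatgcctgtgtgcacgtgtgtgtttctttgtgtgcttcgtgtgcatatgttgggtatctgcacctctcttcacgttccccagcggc

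Tnfrsf13b and Tnfrsf4 each held 1 Ets core, a motif found in 19.7% of all 32851 windows of this length. Tnfrsf18 held 1 purine box (23.3% of windows) and 1 E box (17.2%), and AP-1 (6.75%) was in none of the 3. A match is a description of letters. The Ets core and the purine box both hold the letters GGAA, so they are not separate kinds of site. No relation between matches and signals was tested.

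The receptors for TNF itself were above the floor on all arrays. Tnfrsf1a, the death domain receptor TNFR1, was 638 in CD8+CX3CR1+, 864 in CD8+CX3CR1-, 544 in CD4+ and 879.8 in DN DCs. Tnfrsf1b, encoding TNFR2, which binds TRAF adaptors and has no death domain, was 371, 228, 551 and 398 in the same order. The CD4+ array was thus lowest in Tnfrsf1a and highest in Tnfrsf1b, and the CD8+CX3CR1- array was lowest in Tnfrsf1b. The CD4+ array exceeded the CD8+CX3CR1- array 2.41-fold in Tnfrsf1b and lay 1.59-fold below it in Tnfrsf1a. A second probe set of Tnfrsf1b was at 13.1 to 19.3 on all arrays, so this order rests on 1 of its 2 probe sets.

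Among the other death domain receptors and the TRAIL receptors, Tnfrsf21 (DR6) was 227 and 283 in CD8+CX3CR1+ and CD8+CX3CR1- DCs and 153 and 155 in CD4+ and DN DCs. Both CD8+ arrays were above both others, by 1.47-fold to 1.85-fold. Its second probe set did not follow this order, being above the floor at 87.1 in CD4+ DCs only. With the mean of both probe sets the log2 difference of CD8+CX3CR1- minus CD4+ turned from 0.89 to -1.05. Tnfrsf10b, a receptor for the apoptosis-inducing ligand TRAIL, was 79.1 in CD8+CX3CR1+ DCs and below the floor on the others, and its second probe set was below it everywhere. Tnfrsf22, a decoy receptor for TRAIL in mice, was 85.9 in CD8+CX3CR1- DCs, 56.5 in CD4+ DCs, 118 in DN DCs and below the floor at 42.0 in CD8+CX3CR1+ DCs. Tnfrsf22 and its close relative Tnfrsf23 can share probe sequence, so this value is uncertain. The other probe sets of Tnfrsf22 stayed below the floor on all arrays, so its order rests on 1 of 3 probe sets.

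The remaining receptors were near the floor. Tnfrsf11a, which encodes RANK, was 95.1, 55.0, 77.4 and 64.3 in CD8+CX3CR1+, CD8+CX3CR1-, CD4+ and DN DCs, where the last 2 change order at an equal median, with the CD8+CX3CR1- array below the floor. Its second probe set was 18.3, 32.7, 64.0 and 63.0, lowest in CD8+CX3CR1+ DCs. With the mean of both, CD8+CX3CR1+ minus CD4+ turned from 0.30 to -0.34 on the log2 scale and CD8+CX3CR1+ minus DN from 0.56 to -0.19. Tnfrsf12a, the TWEAK receptor Fn14, was 73.6 in CD8+CX3CR1- and 93.1 in CD4+ DCs and below the floor at 35.6 and 53.0 in CD8+CX3CR1+ and DN DCs. With the arrays scaled to an equal median the CD8+CX3CR1- and CD4+ arrays change order (log2 difference 0.01). Its second probe set was highest in CD4+ DCs, at 108, and below the floor on the rest. Tnfrsf9, encoding CD137, was above the floor in DN DCs only, at 64.2, and its other probe sets were below it on all arrays.

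Of the ligands picked by symbol, Tnfsf9, encoding CD137L, had the widest spread after the floor and lay above it everywhere. It was 259 in CD8+CX3CR1+ DCs, 129.9 in CD8+CX3CR1- DCs, 96.7 in CD4+ DCs and 198 in DN DCs. The CD8+CX3CR1+ and DN arrays were the high ones, 2.68-fold and 2.05-fold above the CD4+ array. The CD8+CX3CR1+ array exceeded the CD8+CX3CR1- array by just under 2-fold (log2 difference 0.997). Tnf itself varied little, at 91.6, 102, 108 and 85.9 in CD8+CX3CR1+, CD8+CX3CR1-, CD4+ and DN DCs. These signals span 0.33 on the log2 scale, and with other scalings the CD4+ array is no longer above both CD8+ arrays.

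Tnfsf14, which encodes LIGHT, a ligand of the lymphotoxin beta receptor and HVEM, was above the floor in CD4+ DCs at 106.5 and in DN DCs at 67.3. On the CD8+CX3CR1+ and CD8+CX3CR1- arrays it was at 20.6 and 4.70, both below the floor, so the CD4+ array was at least 1.91-fold higher than each CD8+ array. A second probe set of Tnfsf14 was at 2.90 to 9.20 on all arrays, so this order rests on 1 of its 2 probe sets. Tnfsf8, encoding the CD30 ligand, was above the floor in DN DCs only, at 85.7, and its receptor gene Tnfrsf8 was below it on all arrays. Likewise Tnfsf4, encoding the OX40 ligand, was below the floor on the arrays where its receptor gene Tnfrsf4 was above it.

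By the 4-fold rule, 0 of the 5 ligands above the floor were called in any of the 6 pairs of arrays. Of the 13 receptors, 2 were called between CD8+CX3CR1+ and CD8+CX3CR1- (Tnfrsf13b and Tnfrsf4), where 2.82% of the 12608 genes tested were called. Tnfrsf13b was the 1 receptor called between CD8+CX3CR1- and CD4+ (background 2.98%) and between CD8+CX3CR1- and DN (2.02%). No receptor was called between CD8+CX3CR1+ and CD4+ (0.769%), CD8+CX3CR1+ and DN (0.412%) or CD4+ and DN (0.254%). A receptor more or fewer is 7.69% of the 13, so these counts are coarse beside such shares, and they were not tested. At 2-fold, 3 receptors were apart between CD8+CX3CR1+ and CD8+CX3CR1- (background 13.5%) and 3 between CD8+CX3CR1- and CD4+ (15.9%), namely Tnfrsf13b and Tnfrsf18 in both pairs, with Tnfrsf4 in the first and Tnfrsf1b in the second. Between CD8+CX3CR1- and CD4+, Tnfrsf1b was short of 2-fold with the arrays scaled to an equal median (log2 difference -0.92) or with the mean of its probe sets (-0.68), while Tnfrsf1a (1.02) and Tnfrsf21 (1.23) passed it at an equal median. The ligand Tnfsf13b also passed 2-fold at an equal median. Its values were 1.03 (CD8+CX3CR1- minus CD4+), 1.07 (CD8+CX3CR1- minus DN) and -1.07 (CD8+CX3CR1+ minus CD8+CX3CR1-), and each was 0 with the mean of its probe sets. Between CD8+CX3CR1+ and CD4+, 1 receptor (Tnfrsf4) and 1 ligand (Tnfsf9) were 2-fold apart (9.36%). Against DN, 3 receptors were 2-fold apart for CD8+CX3CR1- (10.9%), namely Tnfrsf13b, Tnfrsf18 and Tnfrsf4. For CD8+CX3CR1+ it was 1 receptor, Tnfrsf22 (5.91%), and for CD4+ 2 receptors, Tnfrsf22 and Tnfrsf4, and 1 ligand, Tnfsf9 (7.57%). Both differences of Tnfrsf22 were 0 with the mean of its probe sets. The pairs share arrays, so a low value in CD8+CX3CR1- DCs enters each of its 3 pairs. The plot of differences by pair shows the members against all detected genes.

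**Figure D2:**
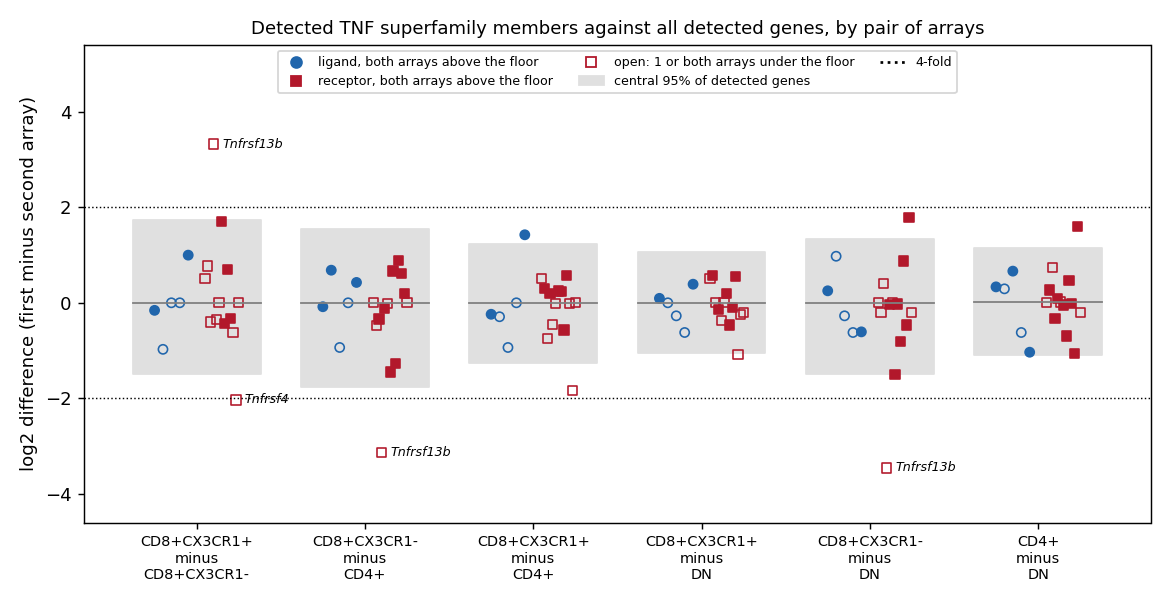
Log2 difference (first minus second array, after the floor) of the 5 ligands (blue circles) and 13 receptors (red squares) in each of the 6 pairs of arrays; grey boxes hold the central 95% of the 12608 detected genes with their median, dotted lines mark 4-fold, and open symbols have 1 or both arrays below the floor. Named points are past 4-fold: Tnfrsf13b in the 3 pairs with the CD8+CX3CR1- array and Tnfrsf4 between the CD8+ arrays.

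Family genes with other names were followed in a separate list. Of 14, 7 passed the floor on 1 array or more, and Ltb was called, in the same 3 pairs as Tnfrsf13b. In these pairs 2.02% to 2.98% of all detected genes were called, and a count among 7 genes is coarse beside such shares. Ltb, which encodes lymphotoxin beta, was 2146 in CD8+CX3CR1+, 1568 in CD4+ and 1112 in DN DCs, and 103 in CD8+CX3CR1- DCs. It lies beside Tnf on chromosome 17, whose signal varied little over the same arrays, and Lta, on the other side of Tnf, was below the floor on all 4. The lymphotoxin beta receptor gene Ltbr was 133, 153, 163 and 197 in CD8+CX3CR1+, CD8+CX3CR1-, CD4+ and DN DCs. Cd40, whose product matures DCs on contact with T cells, was 885, 475, 1162 and 787 in this order, and Relt, an orphan receptor of the family, was 270, 144, 530 and 422. Both were lowest in CD8+CX3CR1- DCs, by less than 4-fold. Of the ligands Cd40lg, Cd70 and Eda, none was above the floor, while Fasl was 88.2 in CD4+ and 107 in DN DCs and below the floor on both CD8+ arrays.

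Over all detected genes, 0.254% (CD4+ against DN) to 2.98% (CD8+CX3CR1- against CD4+) were called. Of 24 adaptor and signalling genes measured, 23 were above the floor on all arrays and 0 were called in any pair, which is near those shares. Their median log2 difference was 0.19 for CD8+CX3CR1+ minus CD8+CX3CR1-, -0.53 for CD8+CX3CR1- minus CD4+ and -0.31 for CD8+CX3CR1- minus DN, beside medians of all genes between -0.01 and 0. Of the 12608 genes behind those medians, 7761 were above the floor on all arrays. Genes below it on both arrays of a pair enter with a difference of 0, so the background is not matched in signal. At an equal median of the arrays the value against CD4+ was -0.18, where the median of all genes was 0.15. With the mean of probe sets, over 22 genes, the medians were 0.32 (CD8+CX3CR1+ minus CD8+CX3CR1-), -0.20 (CD8+CX3CR1- minus CD4+) and -0.24 (CD8+CX3CR1- minus DN). The CD8+CX3CR1- array was the lowest in 14 of the 23 genes and the highest in 3 (Sharpin, Tab2 and Traf5). The same count was not made over all genes, so 14 of 23 has no background share beside it. Traf1, an adaptor of TNFR2 and CD40 signalling, was 1239, 1086, 2331 and 1724 in CD8+CX3CR1+, CD8+CX3CR1-, CD4+ and DN DCs. Cflar, an inhibitor of caspase 8, was 335, 144, 265 and 215, and Map3k7, which encodes the kinase TAK1, was 271, 95.3, 212 and 250. Sharpin, a subunit of the linear ubiquitin ligase, went the other way, at 761, 1141, 744 and 841. Traf1 and Sharpin have 2 probe sets each, Cflar 5 and Map3k7 6, and only the highest of each is given.

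All 8 measured NF-kB genes were above the floor on all arrays, and 2 of them passed 4-fold. In the pairs with the CD8+CX3CR1- array, 2.02% to 2.98% of all detected genes were called. A count among 8 genes is coarse beside such shares, and it was not tested. Bcl3, a nuclear partner of NF-kB, was 1265 in CD8+CX3CR1+, 146 in CD8+CX3CR1-, 674.5 in CD4+ and 656 in DN DCs, and was called in all 3 pairs with the CD8+CX3CR1- array. Relb, the NF-kB subunit that lymphotoxin beta receptor and CD40 signals activate, was 2265, 631, 3119 and 1782, and was called between CD8+CX3CR1- and CD4+ (4.94-fold). With the arrays scaled to an equal median, neither passed 4-fold between CD8+CX3CR1- and CD4+. The list's median log2 difference was 0.66 between CD8+CX3CR1+ and CD8+CX3CR1-, in the direction of the first minus the second. It was -0.71 for CD8+CX3CR1- minus CD4+ and -0.62 for CD8+CX3CR1- minus DN. At an equal median of the arrays the value for CD8+CX3CR1- minus CD4+ was -0.36. The CD8+CX3CR1- array was the lowest in 5 of the 8 genes and the highest in 1 (Nfkbib), again with no background share from all genes.

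**Figure D3:**
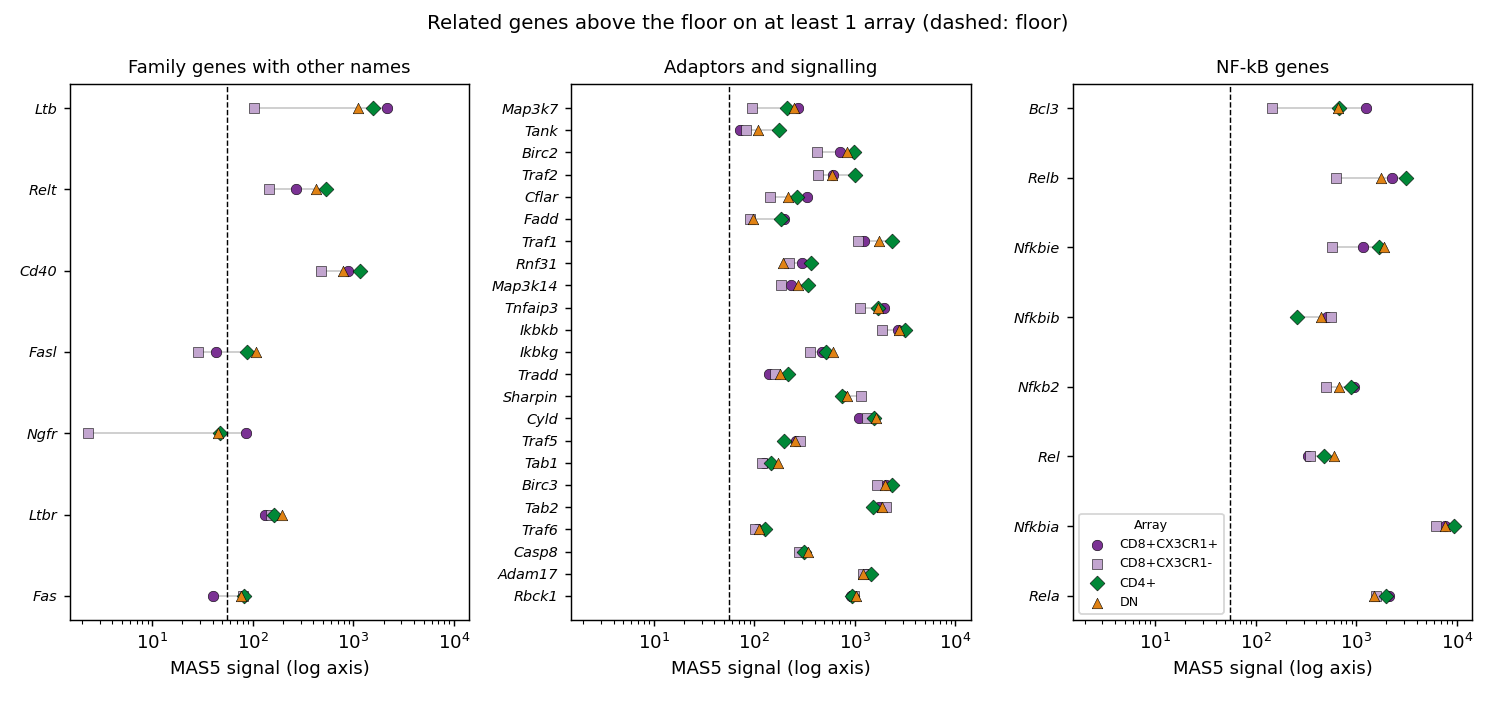
MAS5 signal (log axis) of family genes with other names (7), adaptor and signalling genes (23) and NF-kB genes (8) above the floor on at least 1 array, ordered within each panel by their spread after the floor, with 1 point per array and the floor of 55.7 as a dashed line. Ltb, Bcl3 and Relb show the CD8+CX3CR1- array apart from and below the other 3.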

How the data were processed

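RNA of 4 sorted DC subsets was measured on 1 Affymetrix array each. The authors deposited intensity (signal, linear scale) for each probe set. The submitters' processing notes name MAS5, with no version in the sources used here. In the deposited table the mean signal after trimming 2% at each end was 150.0 on all 4 arrays, so differences in total RNA cannot be seen. Of 45101 probe sets, those with 1 gene symbol in the platform annotation (34945) were named. The floor was the 90th percentile, pooled over arrays, of the signals of chemosensory receptor and keratin-associated protein genes (127 probe sets); on single arrays it was 46.9 to 62.6. A member's probe set was the one with the highest mean log2 signal.

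The 6 pairs of arrays were compared by log2 difference after the floor; members above the floor on at least 1 array are given with values, the others by name. Genes of the related lists were named if called in any pair, and the other list genes given were picked after their values were seen. The members and lists were chosen with earlier results of these data known. The calling step was run on simulated data with changes planted only in genes far above the floor. It says nothing on calls near the floor. Python 3.11.15, numpy 2.4.6, pandas 2.3.3 and matplotlib 3.10.9 were used. Alternatives were other scalings, floors, probe set rules and a 2-fold threshold. The number of arrays limits the precision.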

Additional observations from a re-analysis of the deposited data

How the results depend on the processing

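No paired analysis was possible because each group has 1 array, and no array could be left out. The bound of Tnfrsf13b stayed past 4-fold in its 3 pairs in all alternatives tried, with log2 differences of 2.92 to 3.46, -3.27 to -2.74 and -3.59 to -3.06 for CD8+CX3CR1+ minus CD8+CX3CR1-, CD8+CX3CR1- minus CD4+ and CD8+CX3CR1- minus DN. The call of Tnfrsf4 between the CD8+ arrays was lost with a floor at the 95th percentile (-1.64) or at the highest of the single arrays' floors (-1.86). This left 1 receptor called there, while 2.94% of all genes were called with either floor. Without a floor, receptors called numbered 5 between CD8+CX3CR1+ and CD8+CX3CR1-, 3 between CD8+CX3CR1- and CD4+ and 5 between CD8+CX3CR1+ and CD4+, and ligands 2, 1 and 2, while 17.5%, 19.9% and 17.0% of all genes were called; each added call has at least 1 signal below the floor. At 2-fold, 3 receptors were called between CD8+CX3CR1- and CD4+ (15.9% of all genes), and 1 receptor and 1 ligand between CD8+CX3CR1+ and CD4+ (9.36%). With a floor at the 75th percentile, 1 of 16 receptors (Tnfrsf4) was called between CD8+CX3CR1+ and CD4+, where 1.24% of 15280 genes were called. Scaling to an equal median moved the median of all genes by up to 0.18 (log2) in pairs with the CD4+ array. Tnfrsf18 has no value without _x, _s and _a probe sets. No call reversed. Differences among members near the floor cannot be ordered at this signal.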
